A study of Mus musculus with 6 samples.

Results

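The interferon regulatory factors are a family of transcription factors, of which Irf1, Irf2, Irf3, Irf4, Irf5, Irf7, Irf8 and Irf9 are described here in mouse megakaryocyte progenitors (MkP). The members were chosen by gene symbol in the platform annotation, which gave 14 probe sets for these 8 genes, out of 18194 genes named on the array. A probe set is the group of array probes that measures one transcript or a few related ones, and every probe set of each gene is given. The series compared 3 arrays of fetal liver MkP, from embryos at E13.5, with 3 arrays of bone marrow MkP, from adults aged 12 to 18 weeks. All mice were wild-type C57BL/6 with no treatment named, and the sort took cells without lineage markers or Sca-1 that carried CD41, CD150 and c-Kit. Arrays of a tissue are named biological replicates in the labels without saying how many animals or embryos each holds, so p-values measure the spread between these samples. Age and organ differ together in this design and cannot be told apart. In RNA from sorted bulk cells, fewer cells of a type and less RNA per cell cannot be told apart either.

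All members bind DNA through a conserved amino-terminal domain that recognises GAAA-type repeats, the core of the interferon-stimulated response element. IRF3 and IRF7 are phosphorylated by kinases downstream of nucleic acid sensors and switch on type I interferon genes, and IRF5 acts downstream of Toll-like receptors. Secreted interferon then acts through JAK kinases on a complex that holds IRF9, which activates antiviral genes. IRF1 is induced by interferon gamma and activates antigen presentation genes, and IRF4 and IRF8 act in lymphoid and myeloid cells together with ETS factors such as PU.1.

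The promoters are shown because members of this family, Irf1 and Irf8 among them, are themselves known targets of interferon signalling. The 250 bases before each annotated start used were taken from RefSeq (GRCm38.p6), with 11 starts for all 8 genes. The starts used for Irf5 and Irf7 lie within the annotated bounds of these genes. Windows before their outermost ends were not taken. They were searched on both strands for the response element core (GAAA, any 2 bases, GAAA), for TTCNNNGAA, the gamma-activated site of interferon-responsive promoters, and for the composite element of ETS and IRF factors (GGAA, any 2 bases, GAAA). The composite element and the core may overlap, and TTCNNNGAA reads the same on both strands. Of 32851 such windows over all genes in the table, 2.98% held the first motif, 7.02% the second and 2.30% the third. Among the member windows 3 of 11 held a gamma-activated site, 1 held a response element core and 1 a composite element. The 3 windows with a match follow, 5′ to 3′, with matches in capitals.
Irf8, first start, chr8:120736108-120736357, plus strand: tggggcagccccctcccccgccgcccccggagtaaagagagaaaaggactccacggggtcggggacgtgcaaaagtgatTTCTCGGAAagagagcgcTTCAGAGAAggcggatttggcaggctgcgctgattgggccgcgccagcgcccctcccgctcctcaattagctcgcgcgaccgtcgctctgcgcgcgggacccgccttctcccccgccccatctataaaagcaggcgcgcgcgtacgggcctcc
Irf1, first start, chr11:53769764-53770013, plus strand: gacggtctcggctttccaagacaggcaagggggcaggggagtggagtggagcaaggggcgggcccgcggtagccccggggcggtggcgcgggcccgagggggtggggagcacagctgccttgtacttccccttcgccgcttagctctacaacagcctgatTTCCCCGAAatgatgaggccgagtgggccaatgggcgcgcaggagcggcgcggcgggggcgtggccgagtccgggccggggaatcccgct
Irf2, chr8:46739495-46739744, plus strand: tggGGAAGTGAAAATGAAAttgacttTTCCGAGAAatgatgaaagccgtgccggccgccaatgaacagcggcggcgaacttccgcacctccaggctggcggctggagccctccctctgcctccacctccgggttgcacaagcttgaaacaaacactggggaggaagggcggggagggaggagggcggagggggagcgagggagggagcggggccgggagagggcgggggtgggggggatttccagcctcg

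The Irf8 window holds 2 gamma-activated sites, at 171 to 163 and 153 to 145 bases before the start, and the Irf1 window holds 1 at 90 to 82. The Irf2 window holds all 3 motifs near its far end, and the first run of capitals is a composite element (247 to 238) and a response element core (241 to 232) that share bases. Its gamma-activated site lies at 224 to 216 bases before the start. Windows of the other starts, those of Irf7 and Irf9 included, held none of these letters. A match is a description of letters and not a site shown to be bound in these cells.

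**Figure D1:**
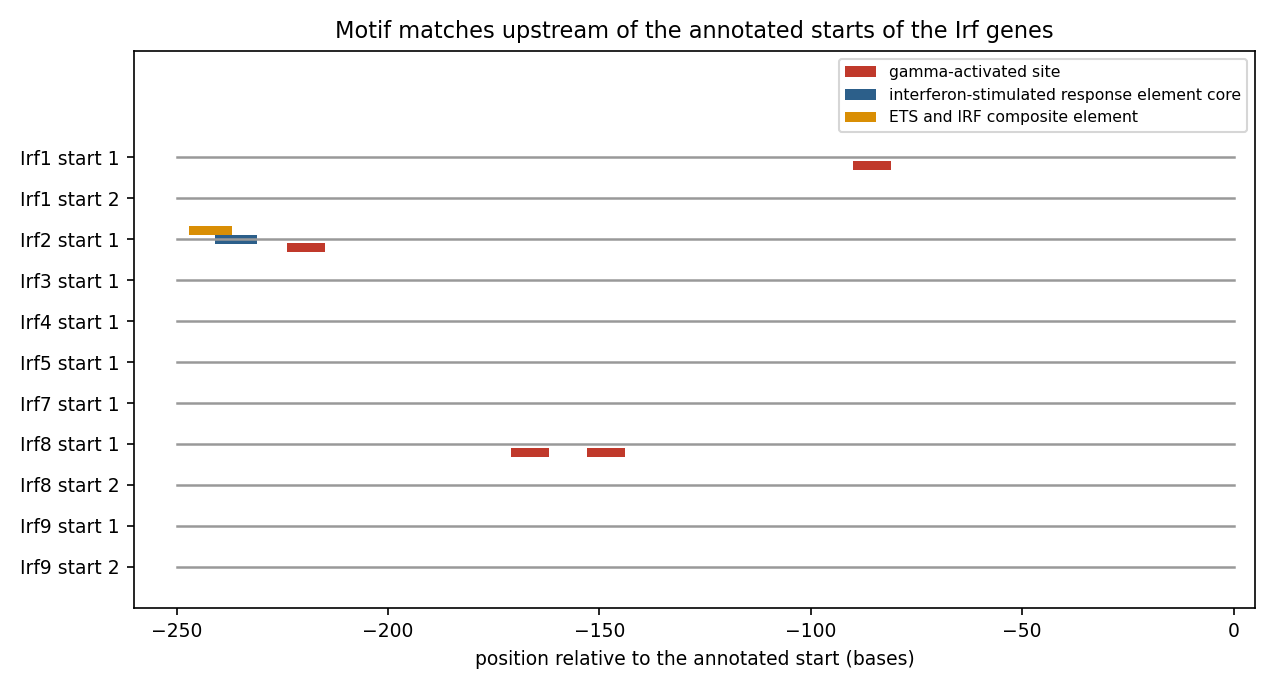
Motif matches in the 250 bases before each of 11 annotated starts of the 8 Irf genes, with position in bases relative to the start on the horizontal axis and 1 line per start. Coloured bars mark gamma-activated sites (3 windows), a response element core (1 window) and a composite element (1 window), and the Irf8, Irf1 and Irf2 windows are the ones with a match.

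Signals are MAS5 probe set intensities on a linear scale, and a signal was called above background when it exceeded the highest bacterial control on its array, which lay between 22.2 and 35.1. Tests used log2(signal + 2.87) in limma with Benjamini-Hochberg adjustment over 27022 probe sets and a threshold of 0.05, and all log2 differences are fetal liver minus marrow. Probe sets in the lower 40 percent by mean log2 signal were left out, and 12 of the 14 member probe sets, from 7 genes, were tested. The 2 left out are both of Irf4. The number of arrays, 3 per tissue, limits the precision. Median signals were 62.8 to 65.5 on fetal liver arrays and 74.1 to 80.2 on marrow arrays, and the ratio of 5′ to 3′ Gapdh signals, a sign of RNA quality, overlapped (0.109 to 0.449 in fetal liver, 0.0990 to 0.303 in marrow).

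In fetal liver MkP Irf8 and Irf1 were lower, and 0 genes of the family were higher. Of the 12 tested probe sets 3 fell, both probe sets of Irf8 and the 1 of Irf1. Over all probe sets 5.06% passed in either direction: 886 (3.28%) fell and 482 (1.78%) rose, so that 64.8% of all calls were lower in fetal liver, a share that became 35.2% under median centring. All 3 member calls held under that centring, which moved the median of all probe sets by 0.25 (log2). Among the 12, the median difference was -0.51 against -0.05 over all probe sets. In 11 of the 12 the fetal liver mean was lower, as it was in 53.6% of all probe sets. That count was 9 under median centring and 10 under quantile normalization. Only 3 of the 12 had an unadjusted p under 0.05, the same 3 that passed the adjustment. In 5 of the 12 all 3 fetal liver signals lay below all 3 marrow signals, as in 14.4% of all probe sets, and in 1 they lay above, as in 11.1%.

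Irf8, the member of the monocyte and dendritic lineages, showed the largest difference of the family. Its brighter probe set (1416714_at) had signals of 109, 80.9 and 58.4 in fetal liver replicates 1, 2 and 3, against 673, 1019 and 2819.9 in marrow replicates 1, 2 and 3. Every fetal liver signal was above background but below every marrow signal, and marrow replicate 3 stood well above the other marrow arrays. The means were 82.6 ± 25.1 in fetal liver and 1504 ± 1153 in marrow (SD, n = 3 each), a log2 difference of -3.91 ± 0.53 (SE, limma adjusted p = 0.00213), or 15.0-fold on the fitted scale. The call held with each array left out in turn. The difference was smallest without marrow replicate 3, at -3.32 (adjusted p = 0.0085).

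The dimmer Irf8 probe set (1448452_at), whose annotation cites the same transcript sequence, gave the same picture at lower signal. Its signals were 44.2, 28.1 and 12.4 in fetal liver, with 2 of the 3 above background, against 153, 189 and 912 in marrow. This probe set passed the brightness filter through its marrow signals, so a call could only be lower in fetal liver. With no filter its limma adjusted p was 0.038. Again the tissues did not overlap and marrow replicate 3 was the highest. The log2 difference was -3.42 ± 0.75 (SE, limma adjusted p = 0.0259). It lost the call without marrow replicate 3 (-2.62, adjusted p = 0.069) and without fetal liver replicates 2 and 3 (adjusted p = 0.0718 and 0.102), with the sign kept. The 2 gamma-activated sites shown above lie before the first annotated start of this gene.

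Irf1, the activator of antigen presentation genes, was the other gene that fell. Fetal liver signals of probe set 1448436_a_at were 307, 187 and 379.8, against 1151, 1118 and 1135 in marrow. The 3 marrow arrays were nearly alike, and the fetal liver arrays were all lower and more scattered. Means were 291 ± 97.3 in fetal liver and 1135 ± 16.6 in marrow (SD, n = 3 each), a log2 difference of -2.01 ± 0.33 (SE, limma adjusted p = 0.00697), or 4.03-fold. It kept its call with each array left out, at -2.23 to -1.72 (adjusted p = 0.0153 to 0.0304). Unlike Irf8, Irf1 had no marrow array that stood apart.

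Irf2, which competes with IRF1 for the same DNA sites, did not pass the threshold. Probe set 1418265_s_at had signals of 239.9, 306 and 280.2 in fetal liver, against 429, 438 and 456 in marrow. The tissues did not overlap, but the log2 difference was -0.68 ± 0.33 (SE, limma adjusted p = 0.292), with a 95% interval of -1.42 to 0.06. The suffix of this probe set marks probes shared with other transcripts.

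Of the members that respond to nucleic acid sensing, Irf7 came closest to a difference and Irf3 gave no single answer. Irf7 (1417244_a_at), itself an interferon-induced gene, had signals of 63.9, 60.7 and 78.3 in fetal liver, against 99.8, 121 and 185 in marrow. These were low signals that did not overlap. Its log2 difference was -0.93 ± 0.51 (SE, limma adjusted p = 0.345), with a 95% interval of -2.05 to 0.18.

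Irf3 has 4 probe sets, all tested and none past the threshold. Probe set 1426111_x_at had 879.8, 1328 and 1037 in fetal liver, against 768, 874 and 703 in marrow. It was the one member probe set with all fetal liver signals on top (0.45 ± 0.27, SE, limma adjusted p = 0.396), and its suffix marks probes that may bind other transcripts. Probe set 1438721_a_at had 720.0, 817 and 559 in fetal liver, against 786, 803 and 969.7 in marrow, with a difference of -0.30 ± 0.28. Here the tissues overlapped.

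The other Irf3 probe sets overlapped as well. Signals of 1416898_a_at were 277, 577 and 442 in fetal liver, against 372, 621 and 368 in marrow (-0.09 ± 0.39), and those of 1435271_at were 282, 42.0 and 225, against 359.6, 176 and 77.1 (-0.28 ± 0.77). Both varied more within a tissue than between the tissues. The sign of 1416898_a_at turned under median centring and quantile normalization, to 0.16 and 0.07, and without fetal liver replicate 1 (0.20) or marrow replicate 2 (0.16). That of 1435271_at turned without fetal liver replicate 2 (0.56) or marrow replicate 1 (0.26).

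Irf5, a mediator of Toll-like receptor signals, gave 2 readings. The brighter probe set (1449678_at) had signals of 1460.2, 1519.5 and 1122 in fetal liver, against 1147, 1798 and 1595 in marrow, which overlap. Its log2 difference was -0.13 ± 0.26 (SE, limma adjusted p = 0.833; interval -0.71 to 0.44), and the sign turned under median centring (0.12) and, barely, without fetal liver replicate 3 or marrow replicate 2. The dimmer one (1460231_at) had 103, 88.9 and 36.6 in fetal liver, against 87.6, 90.4 and 384 in marrow, where replicate 3 alone stood apart. That array was also the highest for both Irf8 probe sets. The difference was -1.03 ± 0.69 (adjusted p = 0.455), and -0.34 without marrow replicate 3.

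Irf9, the DNA-binding subunit of an interferon-activated complex, overlapped between the tissues. Probe set 1421322_a_at had 387, 238 and 213 in fetal liver, against 226, 405 and 432 in marrow. Fetal liver replicates 1 and 2 lay within the marrow range and marrow replicate 1 within the fetal liver range. The log2 difference was -0.34 ± 0.42 (SE, limma adjusted p = 0.723; interval -1.26 to 0.59).

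Irf4, the lymphoid relative of Irf8, was close to background in both tissues. Probe set 1421173_at had signals of 3.50, 25.2 and 11.0 in fetal liver, against 27.0, 8.71 and 50.0 in marrow, and only marrow replicate 3 exceeded its background. Signals of 1421174_at were 23.8, 29.7 and 2.33 in fetal liver, against 3.997, 14.3 and 19.8 in marrow, and only fetal liver replicate 2 exceeded its background. No level and no difference of Irf4 can be read from these signals.

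**Figure D2:**
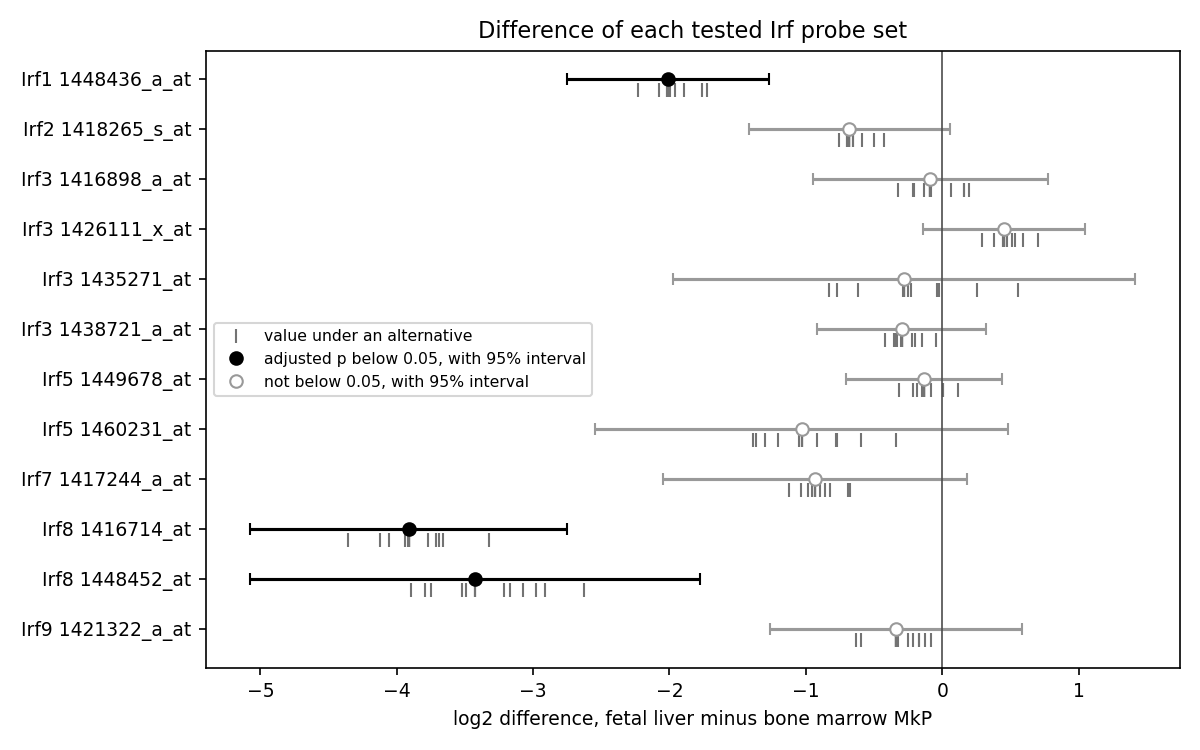
Log2 difference (fetal liver minus bone marrow MkP) of the 12 tested Irf probe sets, 1 per line, as points with 95% intervals from 3 arrays per tissue; ticks below each point are its values under up to 16 alternatives. Irf1 at -2.01 and the Irf8 probe sets at -3.91 and -3.42 are past the threshold (filled), and the other intervals include 0.

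Megakaryocyte markers were present in both tissues, and markers of other blood cells differed between them. All 13 measured megakaryocyte markers were above background in fetal liver and in marrow, with Pf4 and Itgb3 the brightest, and their summed signal was 44403 to 53498 in fetal liver, against 51374 to 56919 in marrow. Monocyte and macrophage markers, led by Lyz2 and Csf1r, summed to 1827 to 2079 in fetal liver, against 8807 to 15562 in marrow, with 9 and 13 of 13 above background on some array. Granulocyte markers, led by Mpo and S100a9, summed to 3433 to 5745 in fetal liver, against 38780 to 61671 in marrow, with 9 and 12 of 12 above background. Markers of conventional dendritic cells, led by H2-Ab1 and Cd74, summed to 503 to 661, against 921 to 3589, with 4 and 9 of 10 above background. Zbtb46, a transcription factor of those cells, ran against its list, at 259.8, 414 and 302 in fetal liver, against 60.1, 102 and 143 in marrow (1.71 ± 0.47, SE, limma adjusted p = 0.0674). Itgax was not above background on any array, and Adgre1, Cx3cr1, C1qa and C1qc were not on any fetal liver array. Marco ran against the monocyte and macrophage list, at 48.3, 46.0 and 46.7 in fetal liver, against 30.6, 9.23 and 24.3 in marrow, and was too dim to be tested. In the same list C1qb, Cd68 and Mrc1 overlapped between the tissues. Marrow replicate 3, the array with the highest Irf8, also had the highest monocyte, granulocyte and conventional dendritic sums, and the highest T and NK cell sum (3044). Not every gene followed: S100a8 and S100a9 were highest on marrow replicate 2 (8106 and 12466, against 7356 and 9324 on replicate 3). Marrow replicate 3 also had the lowest background (22.2) and the most probe sets above it (68.8%). Sums of plasmacytoid dendritic markers (Tcf4 and Klk1 brightest) overlapped, at 2606 to 3089 in fetal liver and 2615 to 2804 in marrow. Tcf4 (means 1155 and 1301) and Klk1 (1231 and 851) made up most of these sums, and Klk1 was higher on every fetal liver array. Siglech was above background on 0 fetal liver and 2 marrow arrays, Ly6d on 1 and 3, and Lifr on 2 and 1. The sums therefore do not measure the share of these cells. Sums for B cells, for T and NK cells and for mast cells and basophils (Gata2 and Ms4a2 brightest) were lower on every fetal liver array, and erythroid sums (Tfrc, Ermap) were higher. Gata2 alone made up most of the mast cell and basophil sum (means 4663 in fetal liver and 8578 in marrow). Prf1 and Nkg7 made up most of the T and NK cell sum. Of the 2 brightest B cell markers, Cd79b overlapped (0.42 ± 0.54) and Vpreb1 differed by -2.03 ± 0.59 without passing (limma adjusted p = 0.0793). Of the 2 brightest T and NK cell markers, Prf1 overlapped (0.14 ± 0.29) and Nkg7 differed by -3.28 ± 0.36 (limma adjusted p = 6.72e-04). Hepatocyte sums (Afp, Apoa1) overlapped, as did Afp (362, 2793 and 265 in fetal liver, against 457, 27.9 and 444 in marrow). Alb, Apoa1 and Apoa2, 3 of the 5 tested hepatocyte markers, were higher on every fetal liver array. The median of the 5 was 1.81, and 0 passed the threshold. The part of these other cell types in the Irf8 and Irf1 differences was not tested.

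**Figure D3:**
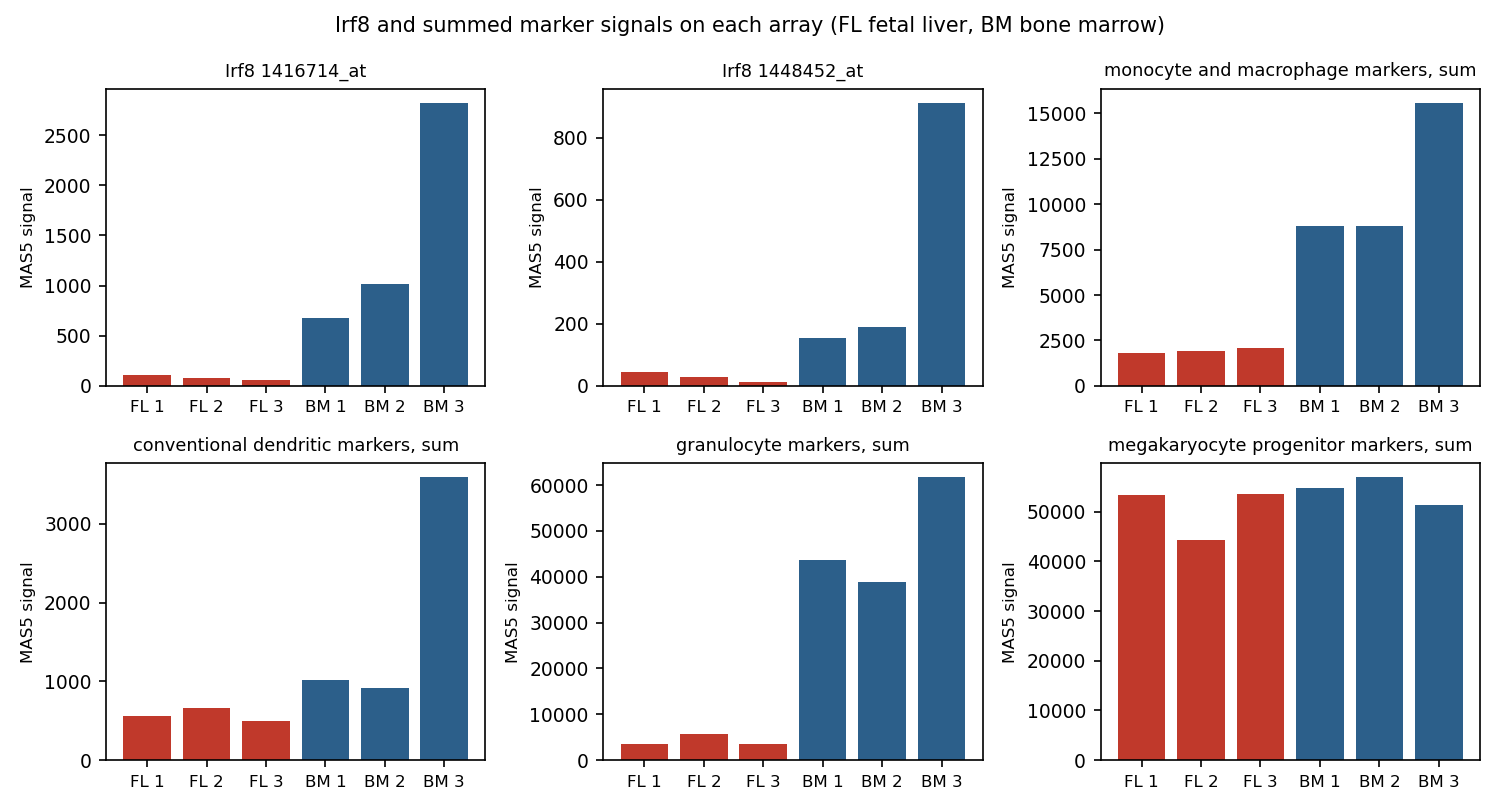
MAS5 signal on each array (FL fetal liver in red, BM bone marrow in blue, 1 bar per array) of both Irf8 probe sets and of 4 summed marker lists. Irf8 and the monocyte, dendritic and granulocyte sums are higher on all 3 marrow arrays and highest on BM 3 (2819.9 for the brighter Irf8 probe set), while the megakaryocyte progenitor sums lie between 44403 and 56919 on all 6 arrays.

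Among the lists of genes around the family, genes known to be activated or bound by IRF1 had the most calls, all of them lower in fetal liver MkP. Each gene was represented by its brightest tested probe set, and over all 11625 genes 4.09% fell and 2.26% rose. Of 19 measured genes of the IRF1 list 12 fell and 0 rose, and the median difference was -1.998 against 0.006 over all genes, unchanged with 2 dim genes at their bounds. In 17 of the 19 the tissues did not overlap with fetal liver below, as in 14.2% of all genes. Of 10 measured granulocyte markers 9 fell and 0 rose, a larger share, some of them tested only through their marrow signals. Their median was -5.86, or -5.40 with dim genes at their bounds. Nlrc5, which switches on MHC class I genes, had 13.8, 3.23 and 12.7 in fetal liver, not above background, against 1479.5, 2937 and 1361 in marrow, at least 55.3-fold lower (limma adjusted p = 6.61e-05). Here and below, a fold given as at least this large takes background as the fetal liver level. Casp1, the inflammasome protease, had 2.33, 7.22 and 12.6 in fetal liver, again not above background, against 821, 413 and 865 in marrow (at least 20.4-fold, adjusted p = 0.000325). For both genes the tissues were far apart. Both passed the brightness filter through their marrow signals, so a call could only be lower in fetal liver. Vcam1 and Gbp2, also of the 12, passed the filter in the same way, and Vcam1 was above background on 1 fetal liver array. The list was chosen with earlier results of these data known, so its count describes these genes and is not a test of IRF1.

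The immunoproteasome subunit gene Psmb9 was expressed in both tissues, at 455, 648 and 617 in fetal liver, against 6131, 7104 and 8039 in marrow. It fell by 3.63 on the log2 scale, ± 0.23 (SE, limma adjusted p = 3.1e-05). Gbp3, a guanylate-binding protein, had 25.6, 29.5 and 11.3 in fetal liver, with 1 array above background, against 471, 203 and 344 in marrow (-3.78 ± 0.58, adjusted p = 0.00425). Gbp3, too, passed the brightness filter through its marrow signals. Psme1, a proteasome activator subunit, did not pass, at -0.19 ± 0.20 (adjusted p = 0.663). The MHC class II transactivator Ciita was near background in both tissues, at 31.5, 32.4 and 20.9 in fetal liver, against 33.9, 44.0 and 38.6 in marrow.

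Myeloid genes known to be bound by IRF8 fell in 7 of 21 measured cases and rose in 0, with a list median of -0.58. Over all genes 4.09% fell and 2.26% rose. Cathepsin S (Ctss), a lysosomal protease of antigen presentation, had 5.15, 46.4 and 6.41 in fetal liver, against 724, 569 and 1865 in marrow (-5.90 ± 0.76, SE, limma adjusted p = 0.00159). Cybb, a subunit of the phagocyte oxidase, had 7.75, 32.6 and 10.5 in fetal liver, against 575, 738 and 1234 in marrow (-5.56 ± 0.59, adjusted p = 0.000571). Each was above background on fetal liver replicate 2 alone, and with the array background as a floor the differences were -4.57 for Ctss and -4.54 for Cybb. Both genes passed the brightness filter through their marrow signals, so a call could only be lower in fetal liver. Ly86, an accessory protein of the receptor CD180, had 8.12, 20.8 and 9.32 in fetal liver, against 199, 119 and 757 in marrow, at least 8.09-fold lower (adjusted p = 0.00977). Its fetal liver signals were not above background, and it passed the brightness filter through its marrow signals. The chemokine gene Ccl9 had 22.9, 109 and 70.1 in fetal liver, against 526, 315 and 2071 in marrow (-3.56 ± 0.74, adjusted p = 0.0202). All 4 shared with Irf8 the highest marrow signal in replicate 3. Ccl9 lost its call without that array (-2.78, adjusted p = 0.0612) and without fetal liver replicates 1 and 3 (adjusted p = 0.0648 and 0.0548), and without the intensity trend (0.0813).

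Several genes of the IRF8 list are markers of myeloid cells in general, Csf1r and Lyz2 among them, and 6 of its 25 names stand in another list. The monocyte and granulocyte sums given above were also lower in fetal liver, as were those of conventional dendritic, B, T and NK cells, and their part in the counts of the target lists was not tested. Targets that did not pass include the phagocyte lysosomal genes Ifi30 (0.26 ± 0.26) and Ctsc (0.07 ± 0.32), and Naip2 (-0.02 ± 0.36).

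**Figure D4:**
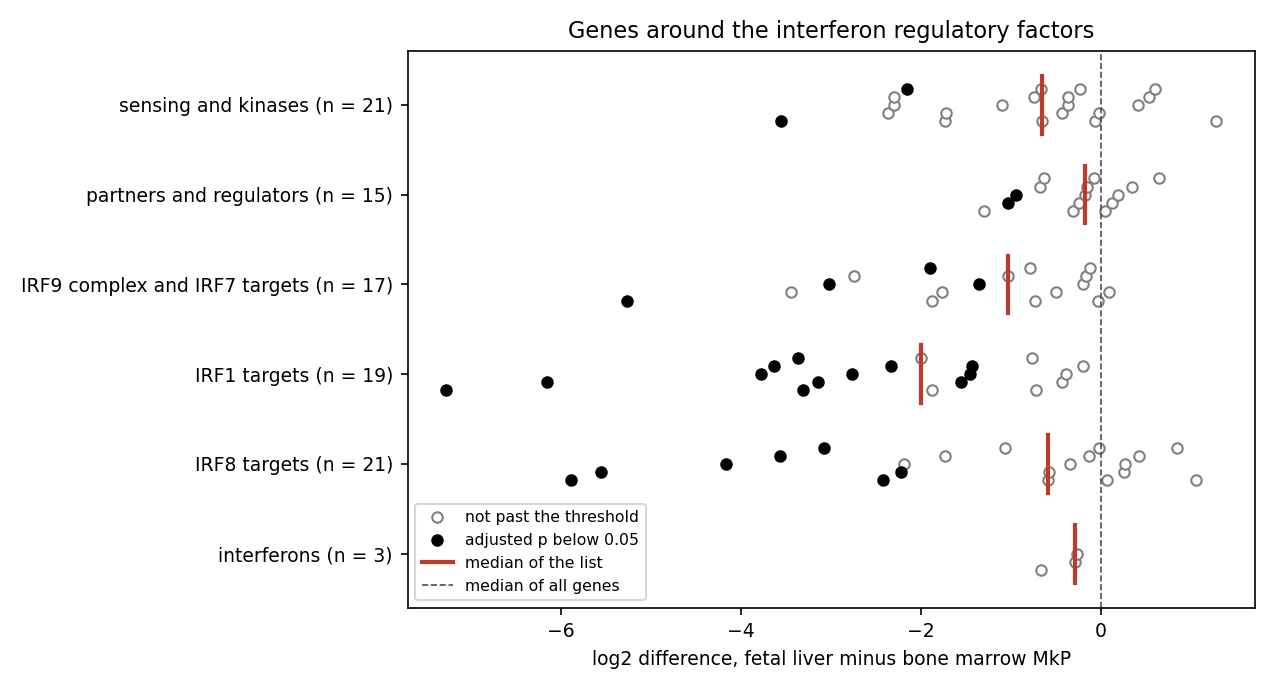
Log2 difference (fetal liver minus bone marrow MkP) of every measured gene in 6 lists around the interferon regulatory factors, with genes past the threshold filled, the list median in red and the median of all genes dashed. All filled points lie left of 0, with 12 of 19 IRF1 targets, 7 of 21 IRF8 targets, 4 of 17 IRF9 and IRF7 targets, and 2 in each of the sensing and partner lists. Over all genes 4.09% fell and 2.26% rose.

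Antiviral genes driven by the IRF9 complex or IRF7 fell in 4 of 17 measured cases and rose in 0, with a median of -1.04. Over all genes 4.09% fell and 2.26% rose. The count of this list was 7 without fetal liver replicate 1 and 3 to 5 without any other array. Rsad2, which encodes viperin, had 6.81, 7.60 and 50.2 in fetal liver, against 481, 930.3 and 682 in marrow (-5.27 ± 0.69, SE, limma adjusted p = 0.00185). Ifitm3, a membrane protein that blocks viral entry, had 6087, 3839 and 6086 in fetal liver, against 13953, 12904 and 13380.0 in marrow (-1.36 ± 0.20, adjusted p = 0.00336). It stayed far above background in both tissues, but lost its call without the intensity trend (adjusted p = 0.068). Rsad2 was above background on 1 fetal liver array, and with the background as a floor its difference was -4.11. It passed the brightness filter through its marrow signals, so a call could only be lower in fetal liver.

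Ifi27 had 153, 199 and 165 in fetal liver, against 538, 684 and 738 in marrow (-1.90 ± 0.35, adjusted p = 0.0116; 0.0545 without fetal liver replicate 3). Parp14, an ADP-ribosyltransferase, had 9.82, 47.0 and 51.8 in fetal liver, against 165, 565 and 192 in marrow (-3.02 ± 0.72, adjusted p = 0.0381). Parp14 did not pass under quantile normalization (0.0593), with no filter (0.056), without the intensity trend (0.0861) or with any array left out, at adjusted p of 0.0894, 0.0703 and 0.0668 without fetal liver replicates 1, 2 and 3 and of 0.0564, 0.115 and 0.0668 without marrow replicates 1, 2 and 3. Genes of the list that did not pass include the RNA-editing enzyme gene Adar (-0.03 ± 0.29), the kinase gene Eif2ak2 (-0.19 ± 0.29) and Trim25 (-0.12 ± 0.18).

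Upstream of IRF3, IRF5 and IRF7, 2 of 21 measured sensors, adaptors and kinases fell and 0 rose, with a median of -0.66. Over all genes 4.09% fell and 2.26% rose. Cgas, the cytosolic DNA sensor, had 555, 769 and 735 in fetal liver, against 2752, 4269 and 2367 in marrow (-2.15 ± 0.28, SE, limma adjusted p = 0.0017), and its call held with each array left out. Unc93b1, which carries nucleic acid-sensing Toll-like receptors to endosomes, had 4.66, 30.1 and 1.83 in fetal liver, against 139.7, 52.7 and 239 in marrow (-3.56 ± 0.86, adjusted p = 0.0412). Unc93b1 was above background on 1 fetal liver array and passed the brightness filter through its marrow signals. Its call was lost with the array background as a floor (-1.87, adjusted p = 0.0822), with no filter (0.066), under quantile normalization (0.0533), without the intensity trend (0.0858), with a replicate block (0.0574) and without fetal liver replicates 1 and 3 (0.11 and 0.146). It was not tested with any marrow array left out. The list's count was 1 without marrow replicates 1 and 3 and without fetal liver replicate 3. Tbk1, the kinase that activates IRF3, had 1825, 1256 and 1460.0 in fetal liver, against 1306, 1691 and 1585 in marrow (-0.02 ± 0.24, 95% interval -0.56 to 0.51), with overlap. Its partner kinase Ikbke differed by -2.30 ± 0.68 without passing (adjusted p = 0.0809), as did the adaptor Sting1 (-2.30 ± 0.63, adjusted p = 0.0652).

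Among 15 measured partners and regulators of the family 2 fell and 0 rose, with a median of -0.18. Over all genes 4.09% fell and 2.26% rose. Irf2bp2, a corepressor first found through IRF2, had 6447, 6501 and 8045 in fetal liver, against 12957, 11901 and 15659 in marrow (-0.95 ± 0.17, SE, limma adjusted p = 0.0101; 0.0552 without fetal liver replicate 2 and 0.128 without the intensity trend). Trim21, a ubiquitin ligase that acts on several IRF proteins, had 1189.9, 915 and 721 in fetal liver, against 2019, 1984 and 1696 in marrow (-1.04 ± 0.26, adjusted p = 0.0457). With an array left out, Trim21 passed only without fetal liver replicate 1. The other cases gave adjusted p of 0.157 and 0.195 without fetal liver replicates 2 and 3 and of 0.104, 0.0981 and 0.0678 without marrow replicates 1, 2 and 3. It also did not pass under quantile normalization (0.0545), under median centring (0.0999), with no filter (0.0619) or without the intensity trend (0.13). The count of 2 became 0 without fetal liver replicate 2 and 1 without fetal liver replicate 3 and each marrow array. Spi1, which encodes PU.1, the ETS partner of IRF4 and IRF8, had 139, 121 and 147 in fetal liver, against 70.9, 169.7 and 337 in marrow (-0.24 ± 0.58, adjusted p = 0.871). Its tissues overlapped, with a 95% interval of -1.52 to 1.04. Stat2, the partner of IRF9, overlapped as well (-0.18 ± 0.43).

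The interferon genes themselves gave little signal. Of 16 listed, 10 had a named probe set and 3 were tested, none past the threshold, with an unadjusted p under 0.05 in 0 of them. Ifna1 had 105, 123 and 50.2 in fetal liver, against 94.4, 136 and 93.4 in marrow (-0.29 ± 0.54, limma adjusted p = 0.826), and Ifna5 differed by -0.67 ± 0.63 (adjusted p = 0.62). Both are of a family of near-identical genes and their probe sets may bind other members. Ifnz, above background on all 6 arrays, differed by -0.26 ± 0.55 (limma adjusted p = 0.847). Ifnb1 and Ifng were not above background on any fetal liver array and were above it on 1 marrow array each, so no difference can be read for them.

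The genes most like each called member across the 6 arrays were found by the root mean square (RMS) difference of mean-centred log2 signals among 11624 other genes. Nearest to Irf8 was Selp, which encodes the platelet granule receptor P-selectin (RMS difference 0.35), with 71.4, 40.6 and 40.5 in fetal liver, against 325, 793 and 1089 in marrow. Next came Sorl1, a sorting receptor, at 0.39 (29.5, 29.3 and 35.9, against 343, 338 and 965), then Sqor, a sulfide-oxidising enzyme of mitochondria, at 0.40 and the ubiquitin ligase gene Dtx4 at 0.44. Sqor was not above background on any fetal liver array (8.59, 2.97 and 4.03, against 117, 97.4 and 337 in marrow), so its distance rests on signals below background and its place among the 4 is uncertain. Dtx4 was above background on 1 fetal liver array and Sorl1 on 2. All 4 had their highest marrow signal in replicate 3, as Irf8 had. They were chosen by likeness over these same arrays, so the shared peak follows from the choice. Selp is a gene of megakaryocytes, and which cells gave the Irf8 signal was not tested.

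Nearest to Irf1 were Pde10a, a phosphodiesterase (RMS difference 0.20), Nupr1, a stress-induced chromatin protein (0.20), Ncoa1, a coactivator of nuclear receptors (0.21), and Cpt1a, the mitochondrial fatty acid importer (0.21). Cpt1a, for example, had 443, 383 and 517 in fetal liver, against 1838, 1439.6 and 1779.8 in marrow. For these 4 genes, too, no marrow array was far from the others, which again follows from the choice by likeness. All but Ncoa1 passed with each array left out, and Ncoa1 (-1.85, adjusted p = 0.038) did not pass without fetal liver replicates 1, 2 or 3 or without marrow replicates 1 or 3 (adjusted p = 0.0702, 0.157, 0.0837, 0.0868 and 0.102). Within the family, the gene closest to Irf1 was Irf7 (RMS difference 0.64, position 483), and the one closest to Irf8 was Irf1 (1.22, position 297). The difference between the tissues enters each of these distances.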

How the data were processed

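The deposited values are linear intensities of probe sets. MAS5 made them, per the submitters' processing notes, with no version or scaling target in the sources used here. The deposited table held 45101 probe sets, 64 of them controls, and the trimmed mean (2% at each end) was 500.0 on every array. No 2 arrays shared an identical value for any probe set. The number of arrays, 3 per tissue, limits the precision, and no read depth applies.

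An offset of 2.87, the 10th percentile over all arrays, was added before log2, without further scaling. Probe sets with a mean above the 40th percentile (27022 of 45037) were fitted in limma 3.58.1 under R 4.3.3 (lmFit, eBayes with an intensity trend) and adjusted by Benjamini-Hochberg over all of them. The fit was checked on simulated data. Background on an array was the highest of 27 bacterial control probe sets. Gene names came from the platform annotation, with 34958 probe sets of 1 symbol. For lists, the brightest tested probe set stood for a gene (11625 genes). Promoter sequences came from RefSeq (GRCm38.p6), and no build is named for the array values.

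Members and lists were chosen with earlier results of these data known. Named were all members, up to 4 genes past the threshold with the largest difference in each pathway list (or, with none, the 2 of smallest p), the 4 genes most like each called member and the 2 brightest markers of each cell type, and further list genes were chosen after their values were seen. Alternatives covered the offset, scaling, filter, variance model, features fitted, a background floor, a replicate block and each array left out. Figures were drawn with matplotlib 3.10.9.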

Additional observations from a re-analysis of the deposited data

How the results depend on the processing

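The calls of Irf1 and of the brighter Irf8 probe set held under all 16 alternatives, at adjusted p of 0.00454 to 0.0314 and of 8.73e-04 to 0.021. The count of Irf probe sets that fell was 3, and 2 with the filter at the 60th percentile, without the intensity trend, with one probe set per gene, and without fetal liver replicates 2 and 3 and marrow replicate 3 (2 to 3 with an array left out). The dimmer Irf8 probe set had an adjusted p of 0.0734 without the trend and was not tested under the 60th percentile filter or with one probe set per gene. No Irf probe set was higher in fetal liver under any of the 16. Over all probe sets, 482 higher in fetal liver became 1291 under median centring, 195 without the intensity trend and 140 to 455 with an array left out. The 886 lower became 526 without the trend, 553 with one probe set per gene, which tests fewer features, and 477 to 689 with an array left out.

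The sample titles do not say whether same-numbered arrays belong together. These correlated at 0.123, -0.018 and 0.096 in their deviations from the tissue means, against -0.15 to 0.091 for the other pairs. Replicate 1 had the highest background of its tissue (35.1 in fetal liver, 32.8 in marrow) and the lowest Gapdh ratio (0.109 and 0.0990). A shared batch was not tested. With the number as a replicate block the count of Irf probe sets that fell was 3, and 1077 of all probe sets fell and 717 rose. Among the lists, IRF9 and IRF7 targets moved most, from 4 genes lower to 2 without the trend, 7 with the replicate block and 8 with an offset of 16 or the background floor. IRF8 targets numbered 4 with the 60th percentile filter against 7. The partner list had 0 without the trend and 1 under median centring or with no filter, against 2, and the sensing list 4 with one probe set per gene and 1 to 3 under the other alternatives. Where a value changed, the cause was not tested.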
